A study of Homo sapiens with 8 samples.

Results

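In FAIRE-seq libraries of AIRE-Tet cells, 382 genome windows held 5 or fewer counts in each of the 4 libraries made after AIRE induction, and they are called emptied windows here. They are 0.149% of the 256141 windows of 150 bp in the deposited table of raw counts. The windows start every 50 bp on the hg19 build and overlap, so neighbours up to 100 bp apart were joined, which gave 35741 regions, and the 382 windows lay in 228 of them (0.638%). A window or segment is named by its start. The 4 counts that chose these windows are given as a description, without a test. The rule did not use their position, the width of their regions or their counts in the 4 libraries without induction. These last counts are still not free of the choice. Every window of the table sums to 111 or more counts over the 8 libraries, so few induced counts require many without induction.

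AIRE-Tet is a Tet-On Advanced HEK293 line, a human embryonic kidney line in which doxycycline switches on human AIRE, so it is not a thymic cell. All groups share this line and its G418 medium. The 4 groups, each of 2 biological replicates, were Control (untreated), Dox (1.5 µM doxycycline), Etop (2 µM etoposide for 24 h) and DoxEtop (1.5 µM doxycycline for 24 h, then 2 µM etoposide for 24 h). Etoposide traps topoisomerase II on DNA and leaves breaks. Cells that lack the transgene and received doxycycline were not analysed here, and an effect of the drug cannot be told apart from one of AIRE. The windows of the table carried between 4489871 and 8275911 counts per library. These totals are sums over overlapping windows and not sequencing depths. AIRE expression was not analysed here, so the library labels, that of Control 1 included, were taken as given and not checked.

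AIRE, the autoimmune regulator, is a chromatin-associated protein of medullary thymic epithelial cells, where it promotes transcription of tissue-restricted genes that are then presented to developing T cells. It is known to interact with topoisomerase II and with proteins of the DNA break response. In FAIRE-seq, chromatin is fixed with formaldehyde and extracted with phenol, and DNA that is free of fixed proteins, above all of nucleosomes, is recovered and sequenced. A low count in a window can thus come from a more closed stretch of chromatin, and also from too few sequenced fragments. No gene annotation or genome sequence of hg19 was used here, so windows are named by position.

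The 4 libraries used for the choice held a median of 3 counts per emptied window in Dox 1, 3 in Dox 2, 2 in DoxEtop 1 and 3 in DoxEtop 2. Summed over the 4, an emptied window had 1 to 20 counts with a median of 11, against a median of 71 over the whole table. No emptied window was at 0 in all 4 libraries, 131 were at 0 in at least 1 of them, and 38 in at least 2. Both DoxEtop libraries were at 0 in 9 windows and both Dox libraries in 8. In the same windows the libraries without induction summed to 111 to 228 counts with a median of 136, against a median of 94 over the table.

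The lowest sum of a window over the 8 libraries was 111 counts, and emptied windows summed to 129 to 245 with a median of 147, below the table's median of 160. How the windows of the table were chosen is not stated, and the part of that choice in the high counts without induction was not tested. Of the 83631 windows with 111 or more counts in the libraries without induction, 0.457% were emptied. With the arms exchanged, 0 windows had 5 or fewer counts in each of the 4 libraries without induction. These libraries have larger totals on the whole. With counts scaled to equal totals the number was also 0, and 144 windows met the limit in the induced libraries. Scaling does not make sampling noise equal between libraries, so the part of the totals in this difference was not tested. The raw number is bounded by Control 1, in which 75 windows of the table (0.0293%) had 5 or fewer counts. Such windows numbered 1313 in Control 2, 4382 in Etop 1 and 5701 in Etop 2. Among the induced libraries they numbered 5347 in Dox 1, 12164 in Dox 2, 11803 in DoxEtop 1 and 6576 in DoxEtop 2. Etop 2 alone thus had more of them than Dox 1. By group, 1716 windows had 5 or fewer counts in both Dox libraries, 1599 in both DoxEtop libraries, 160 in both Etop libraries and 2 in both Control libraries. The emptied windows are 22.3% of the Dox set and 23.9% of the DoxEtop set.

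Levels below are in CPM, the count scaled to the library's window total after TMM scaling, which matches libraries on the bulk of their windows. A count of 5 is 0.933 to 1.1 CPM in the induced libraries. The emptied windows had median levels of 0.572 CPM in Dox 1, 0.662 in Dox 2, 0.373 in DoxEtop 1 and 0.593 in DoxEtop 2. The libraries without induction differed widely among themselves in these windows, with medians of 2.53 CPM in Control 1, 7.19 in Control 2, 6.89 in Etop 1 and 4.82 in Etop 2. Over all windows the 8 medians lay between 3.43 and 3.59 CPM. Control 2 and Etop 1 were thus well above the level of the whole table, Etop 2 was moderately above it, and Control 1 was below it. The lowest sum in the table, 111 counts, requires high counts without induction in emptied windows. Its part in these heights was not tested.

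**Figure D1:**
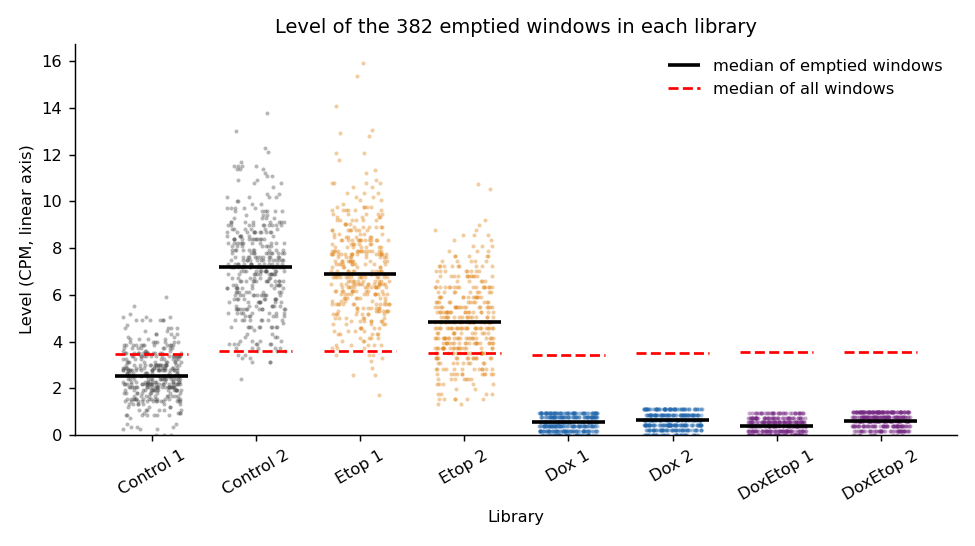
Level in CPM (linear axis) of the 382 emptied windows in each of the 8 libraries, 1 point per window, with the median of the emptied windows as a solid black line and the median of all windows as a dashed red line. The windows were chosen on the 4 induced libraries on the right, and among the other 4 the medians range from 2.53 CPM in Control 1 to 7.19 CPM in Control 2.

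Control 1 was the lowest of the 4 libraries without induction in 323 of 382 emptied windows (84.6%), against 22.3% of all windows. Control 2 exceeded Control 1 in 378 emptied windows (99%), against 49.2% of all windows. The median ratio was 2.63, against 0.99 over all windows (0.1 CPM added to each level). Among etoposide-treated replicates, Etop 1 exceeded Etop 2 in 295 emptied windows (77.2%, against 50.3% of all windows). Their median ratio was 1.49 on the same scale, against 1 over all windows. Control 2 was the highest of the 4 in 196 windows, Etop 1 in 154, Etop 2 in 32 and Control 1 in 0. Over all windows they were the highest in 23.4%, 29.1%, 24.5% and 23.0%, in that order. Both Control 2 and Etop 1 stood above both other libraries in 259 windows (67.8%, against 17.7% of all windows). Together they gave a median of 69.3% of the raw counts without induction, against 51.5% over all windows. The median ratio of the highest to the lowest of these 4 libraries was 3.42, against 2.04 over all windows. Overlapping windows share fragments. With 1 window per region, the emptied window with most counts in Control and Etop (its leading window), Control 1 was lowest in 194 of 228 (85.1%). In the emptied windows the levels without induction were thus spread unevenly over replicates of the same treatment. This was more so in Control (median ratio 2.63) than in Etop (1.49). Over all windows replicates agreed only weakly, and less in Etop, with correlations of log2 CPM of 0.48 in Control and 0.336 in Etop.

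Control 1 was also low where the induced libraries were lowest. The 25 emptied windows with up to 5 counts summed over the 4 induced libraries lay in 17 regions. Control 1 had a median of 1.57 CPM there and Control 2 of 7.94 CPM. In the 28 windows with 16 to 20 such counts, in 23 regions, the medians were 3.25 and 5.92 CPM. Control 1 itself had 5 or fewer counts in 11 emptied windows, 3 of them with 0 counts, whereas Control 2, Etop 1 and Etop 2 had at least 16, 12 and 6 counts in every emptied window.

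Etoposide without induction is the contrast that used none of the columns behind the choice. Over all 256141 windows, 0 (0%) differed between Etop and Control by edgeR's quasi-likelihood test (Benjamini-Hochberg adjusted p under 0.05, smallest adjusted p = 0.999), and DESeq2 also called 0, limma-voom 10, none of them emptied. At an unadjusted p under 0.05 in edgeR were 11458 windows (4.47%), and 37 of the 382 emptied windows (9.69%), in 24 regions, 36 of these 37 with a higher level in Etop. The fitted log2 fold change of Etop over Control had a median of 0.28 over the emptied windows (quartiles 0.00433 and 0.618) and 0.00367 over all windows. Levels of both Etop libraries were above both Control libraries in 49 emptied windows (12.8%) and below them in 0, where the whole table had 16.2% and 16.7%. The sign depends on single libraries: without Control replicate 1 the median was -0.273, and without Control replicate 2 it was 1.24. Without Etop replicate 1 it was -0.0215, so no direction with etoposide can be read from these windows.

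Among leading windows, the 5 with the smallest p in that contrast lay on chromosomes 6, X, 19, 15 and 5. The window at 30720351 on chromosome 6 (region 30720051 to 30720600) had 15 and 30 counts in Control, 76 and 39 in Etop, 4 and 4 in Dox, and 2 and 3 in DoxEtop. The Etop libraries were above both Control libraries there, with a log2 fold change of 1.66 (SE 0.444, edgeR adjusted p = 0.999). On chromosome X, the window at 128109851 (region 128109751 to 128110000) had 16 and 24 counts in Control against 58 and 40 with etoposide, with a log2 fold change of 1.64 (SE 0.455). The windows at 39329251 on chromosome 19, 99342851 on chromosome 15 and 142196251 on chromosome 5 had log2 fold changes of 1.66, 1.60 and 1.77. None of the 5 passed the adjustment over the table.

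The regions with the most emptied windows held 5 each, and there were 6 of them. On chromosome 17, the region from 1619351 to 1620700 had its 5 emptied windows at its last stretch. Its leading window, starting at 1620451, had 17 and 61 counts in Control, 111 and 14 in Etop, 1 and 1 in Dox, and 0 and 0 in DoxEtop. Control 1 and Etop 2 were several times below Control 2 and Etop 1 here, with a ratio of highest to lowest level of 7.79, yet all 4 were above every induced library. The level without induction was 7.55 ± 6.41 CPM (SD, n = 4). This SD pools 2 Control and 2 Etop libraries and is not a spread of replicates.

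Chromosome 1 had a much more even example. In the region from 210001101 to 210001700, the leading window at 210001201 had 38 and 63 counts in Control, 64 and 42 in Etop, 2 and 1 in Dox, and 1 and 5 in DoxEtop. Its level was 8.1 ± 2.35 CPM over the Control and Etop libraries (SD, n = 4). Over the Dox and DoxEtop libraries it was 0.444 ± 0.373 CPM (SD, n = 4), held low by the choice. Each SD pools 2 treatments of 2 replicates and is not a spread of replicates. In this region 5 of the 7 windows were emptied. On chromosome 21, all 5 windows of the region from 45029501 to 45029850 were emptied. The leading window there, starting at 45029651, had 41 and 65 counts in Control, 53 and 28 in Etop, 2 and 3 in Dox, and 2 and 3 in DoxEtop. In these regions the highest of the 4 libraries without induction was above the lowest by ratios of 2.06 and 1.97, against the median of 3.42.

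The region on chromosome 2 from 172543751 to 172544700 had a leading window, starting at 172543851, with 25 and 56 counts in Control, 58 and 28 in Etop, 5 and 3 in Dox, and 5 and 2 in DoxEtop. On chromosome 10, the leading window at 111644151 (region 111643951 to 111644400) had 17 and 50 counts in Control, 66 and 8 in Etop, 5 and 4 in Dox, and 4 and 1 in DoxEtop. Etop 2 came close to the induced libraries there, at 1.75 CPM against 0.953 CPM in Dox 1. On chromosome 8, the leading window at 67579651 (region 67579401 to 67579850) had 17 and 46 counts in Control, 40 and 39 in Etop, 4 and 2 in Dox, and 4 and 2 in DoxEtop. Only in this region of the 10 was Etop 2 the highest of the 4 libraries without induction, at 8.55 CPM.

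The other 4 of the 10 regions with most emptied windows held 4 each. On chromosome 1 (region 173793201 to 173794200), the window at 173793701 had 33 and 58 counts in Control, 57 and 31 in Etop, 4 and 1 in Dox, and 3 and 5 in DoxEtop. On chromosome 6 (region 75953301 to 75953700), the window at 75953401 had 27 and 56 counts in Control, 98 and 20 in Etop, and 3 in each induced library. The window at 47004101 on chromosome 10 (region 47003901 to 47004400) had 18 and 31 counts in Control, 62 and 20 in Etop, 1 and 2 in Dox, and 0 and 2 in DoxEtop. That stretch of chromosome 10 is known for segmental duplications, where reads can be split between near-identical copies, so its counts are uncertain. On chromosome 15 (region 70403701 to 70404300), the window at 70403851 had 32 and 51 counts in Control, 38 and 25 in Etop, 2 and 2 in Dox, and 3 and 3 in DoxEtop. In all 10 leading windows Control 1 was below Control 2, as in 98.7% of the 228 leading windows. No library without induction overlapped an induced one in these 10. The choice favours this, since it limits the induced counts to 5 and picks leading windows for high counts without induction.

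**Figure D2:**
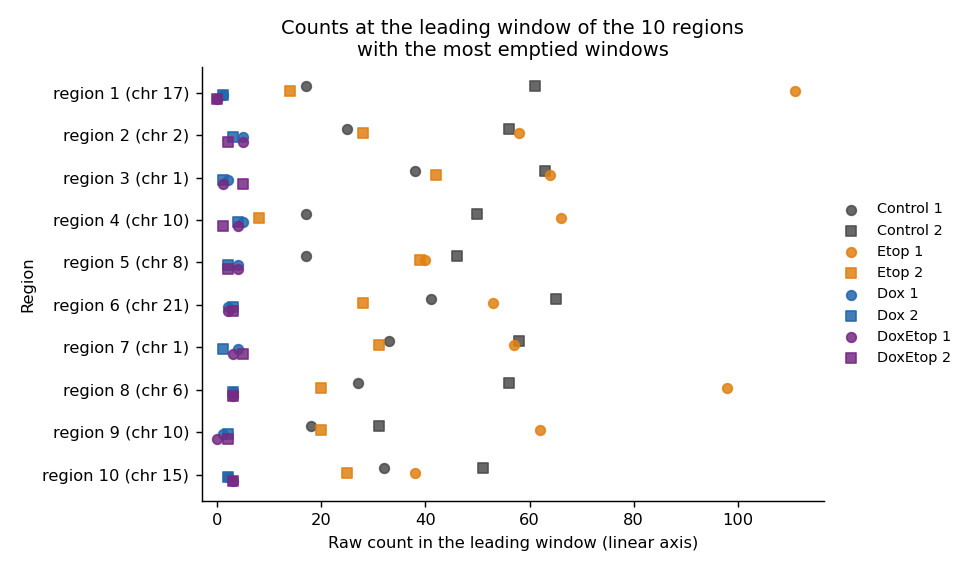
Raw counts (linear axis) at the leading window of the 10 regions with the most emptied windows, 1 point per library, circles for replicate 1 and squares for replicate 2, colours for the 4 groups. The induced libraries lie at 0 to 5 counts by the choice, and the others spread from 8 to 111 counts, with Control 1 left of Control 2 in each region.

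The fewest counts with induction were found on chromosomes 17, 19 and 1. The window at 41322301 on chromosome 17 (region 41322301 to 41322500) had 1 count in Dox 1 and 0 in the other 3 induced libraries. It had 3 and 67 counts in Control and 54 and 21 in Etop, so that Control 1, at 0.361 CPM, was close to the induced libraries. The window at 1620551 on the same chromosome, in the region from 1619351 to 1620700, had 1 count in Dox 1 and 0 in the other 3, against 11 and 28 in Control and 89 and 12 in Etop. On chromosome 19, the window at 36547201 (region 36546701 to 36547450) had 0 and 2 counts in Dox and 0 and 1 in DoxEtop, against 6 and 75 in Control and 58 and 27 in Etop. The window at 45957001 on chromosome 1 had 4 and 53 counts in Control and 58 and 23 in Etop, and that starting at 182809051 had 12 and 48 in Control and 63 and 15 in Etop. Both had 0 and 2 counts in Dox and 0 and 1 in DoxEtop. In each of these 5 windows Control 1 was the lowest library without induction.

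The most even leading windows show emptied sites at which all 4 libraries without induction were alike. On chromosome 10, the window at 33562351 (region 33562351 to 33562550) had 3.97 and 5.69 CPM in Control and 4.45 and 4.82 CPM in Etop, a ratio of highest to lowest of 1.43. Its counts were 3 and 5 in Dox and 1 and 4 in DoxEtop. On chromosome 14, the window at 64108751 (region 64108151 to 64108950) had 43 and 48 counts in Control, 50 and 22 in Etop, and 4 in each induced library, a ratio of 1.49. Windows at 64576551 on chromosome 10, 67155151 on chromosome 15 and 40123751 on chromosome 1 had ratios of 1.52, 1.52 and 1.62. At these 5 windows Control 1 was between 3.85 and 5.18 CPM, above its median of 3.49 CPM over all windows. The pick favours this, since it takes the most even windows from a set with high sums without induction.

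At the other extreme, Control 1 was itself nearly empty. The window at 36606601 on chromosome 5 (region 36606551 to 36606800, all 3 windows emptied) had 0 and 61 counts in Control and 55 and 26 in Etop, with 0 and 1 in Dox and 4 and 4 in DoxEtop. On chromosome 19, the window at 30332651 (region 30332651 to 30333250) had 2 and 82 counts in Control and 42 and 17 in Etop. The window at 78405551 on chromosome 15 had 2 and 39 counts in Control and 61 and 27 in Etop, and that starting at 225966001 on chromosome 1 had 3 and 50 in Control and 62 and 16 in Etop. At these 4 windows Control 1, from untreated cells, was at 0 to 0.361 CPM, within the range of the 4 induced libraries at the same window. The fifth of the most uneven windows was that at 41322301 on chromosome 17, described above.

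The emptied stretches were short. Of the 228 regions, 142 held 1 emptied window, 41 held 2, 28 held 3, 11 held 4 and 6 held 5. Adjacent emptied windows formed 239 runs, 157 of them of 1 window, and the longest run of 5 windows covered 350 bp. In 56 regions every window was emptied, and these regions were 150 to 350 bp wide with a median of 200 bp. The other 172 regions also held windows above the limit, 1593 in all, and were 200 to 3750 bp wide with a median of 550 bp.

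In wider regions the level was followed outwards from the leading window, as a description, since the choice fixes low induced counts there. In regions of over 500 bp, the leading window had a median of 5.45 CPM over the libraries without induction and 0.56 CPM over the induced ones (87 regions), the latter fixed by the choice. At 150 bp from the leading window, where windows no longer overlap it, the medians were 5.70 and 2.66 CPM (91 windows). At 300 bp they were 4.97 and 4.18 CPM (91 windows) and at 450 bp they were 4.51 and 4.49 CPM (68 windows). Control 1 was also lowest at the leading window, with 2.77 CPM against 4.58 CPM at 150 bp, while Control 2 went from 7.49 to 7.19 CPM and Etop 1 from 7.18 to 6.46 CPM. From 250 bp outwards the medians of the 8 libraries lay between 3.17 and 5.47 CPM. The leading window was picked for high counts without induction and few with it, and the part of this choice in the profile was not tested. A fragment can span several windows, so neighbouring points share counts.

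**Figure D3:**
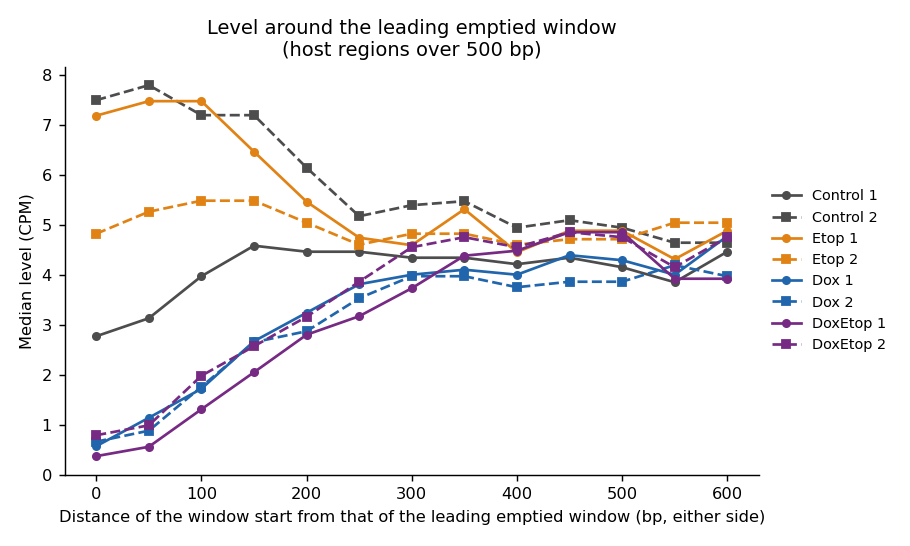
Median level in CPM (linear axis) of each library against the distance in bp between the start of a window and the start of the leading emptied window of its region, both sides pooled, in host regions of over 500 bp. Induced libraries start below 1 CPM by the choice and are at 3.73 to 4.55 CPM at 300 bp, where the others are at 4.34 to 5.39 CPM, and Control 1 starts at 2.77 CPM, between the induced libraries and the other 3.

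The emptied windows lay often at the ends of their regions. Of the 382, 222 (58.1%) were the first or last window of a region, against 26.1% of all windows. In regions of over 500 bp the shares were 52 of 149 (34.9%) and 13.3%, and in regions of over 1000 bp 14 of 46 (30.4%) and 8.48%. The ends of a region depend on which windows the table holds, and the part of this in the position of the emptied windows was not tested.

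By width, 159 emptied windows (41.6%) were in regions of up to 300 bp, which hold 14.1% of all windows. Regions of over 1000 and up to 2000 bp held 34 (8.9%), against 24.3% of all windows. Counted by regions the widths were much closer to the table. The 228 regions had a median of 400 bp (quartiles 200 and 700 bp) and all 35741 regions one of 350 bp (quartiles 250 and 600 bp), and the share of up to 300 bp was 42.5% in both. Of the 246 regions of over 2000 bp, 8 (3.25%) held an emptied window, but such regions have many windows and so more chances to hold one. The widest was the region on chromosome 19 from 36603551 to 36607300, with 71 windows of which 2 were emptied.

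**Figure D4:**
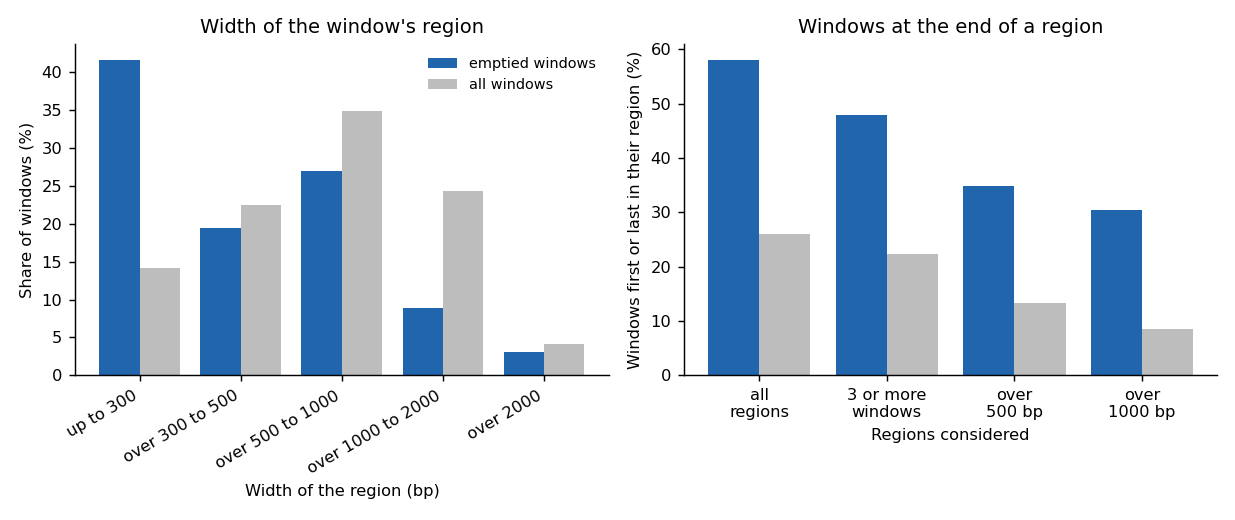
Left, share in percent of the emptied windows and of all windows by the width of their region in bp. Right, percent of windows that are the first or last of their region, for all regions and for wider ones. The emptied windows (blue) are placed more often than all windows (grey) in regions of up to 300 bp, at 41.6% against 14.1%, and at region ends, at 58.1% against 26.1%. With only regions of 3 or more windows the shares at region ends are 47.9% against 22.4%.

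Emptied windows were found on 19 chromosomes. Chromosome 19, which is gene-dense and known for large clusters of zinc finger genes, held 82 in 55 regions. These are 24.1% of the 228 regions, where chromosome 19 holds 15.1% of all regions, and 1.02% of its own regions had an emptied window. Chromosome 1 held 71 emptied windows in 40 regions (17.5%, against 12.4% of all regions), and both chromosomes together held 40.1% of the emptied windows and 27.4% of all windows. Chromosome 12 had 18 regions with an emptied window (1.1% of its regions), chromosome 10 and chromosome 6 had 16 each, and chromosome 17 had 14 (0.542% of its regions). Chromosomes 3 and 20 held 1 emptied window each. Chromosomes 4, 11, 13, 18 and Y held none, with 5.81% of the windows of the table, 14876 in all. These shares are descriptions without a test.

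**Figure D5:**
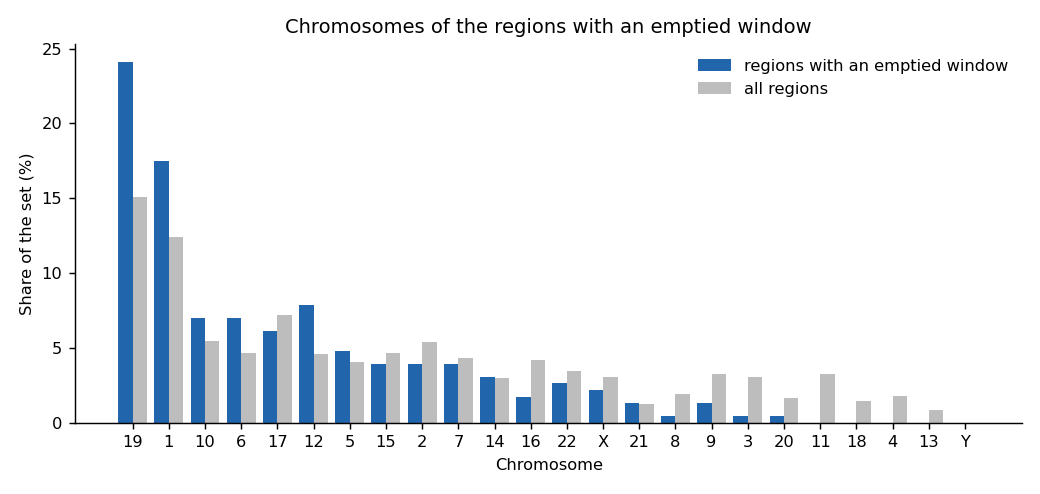
Share in percent of the 228 regions with an emptied window (blue) and of all 35741 regions (grey) on each chromosome, ordered by the number of emptied windows. Chromosome 19 holds 24.1% against 15.1% and chromosome 1 holds 17.5% against 12.4%, and chromosomes 11, 18, 4, 13 and Y hold none.

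Along the chromosomes the 228 regions fell into 171 of the table's 2304 segments of 1 Mb. Of the 171, 141 held 1 such region and 30 held 2 or more, 87 regions in all. The median distance from a region to the nearest other one with an emptied window was 1020 kb. Of the 228, 113 had another within 1 Mb, 47 (20.6%) within 100 kb and 4 within 10 kb. Over all regions of the table, which are far more numerous, the median distance to the nearest region was 1.7 kb. Distances were not worked out for an equal number of other regions, so clustering beyond the uneven density of the table was not tested.

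The segment with most was chromosome 19 from 36000001 to 37000000, with 7 regions among its 384 (1.82%) and 13 emptied windows. They included the region from 36319701 to 36319950, in which all 3 windows were emptied, with 16 and 57 counts in Control, 49 and 21 in Etop, 4 and 3 in Dox, and 1 and 4 in DoxEtop at its leading window, starting at 36319751. A single window from 36136551 to 36136700 in the same segment had 14 and 59 counts in Control, 43 and 13 in Etop, 0 and 1 in Dox, and 5 and 4 in DoxEtop. Both show the order seen in the whole set, with Control 2 and Etop 1 above Control 1 and Etop 2. Further segments of chromosome 19, those beginning at 44000001, 39000001, 50000001 and 41000001, had 4 regions each, out of 196, 466, 131 and 214, and that beginning at 40000001 had 3 out of 228.

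Outside chromosome 19, the segment of chromosome 1 from 234000001 to 235000000 had 4 regions among 58 (6.9%), with 7 emptied windows. Their leading windows started at 234509051, 234611101, 234659401 and 234916451. The third had the widest gap between Control replicates, with 16 and 87 counts in Control, 42 and 23 in Etop, 1 and 3 in Dox, and 2 and 4 in DoxEtop. The segment of chromosome 12 from 54000001 had 4 regions among 103 (3.88%), and those of chromosome 10 from 104000001 and chromosome 6 from 30000001 had 3 each, among 55 and 54. In the chromosome 10 segment the region from 104238751 to 104239050 had all 4 windows emptied, with 21 and 35 counts in Control, 68 and 19 in Etop, 0 and 0 in Dox, and 2 and 5 in DoxEtop at its leading window.

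The limit of 5 counts does not mark a break. The highest induced count was exactly 5 in 202 of the 382 windows, and 246 windows were outside only because 1 induced library had 6 counts, 61 of these in a region with an emptied window. Median levels just inside and just outside were 2.71 and 2.65 CPM in Control 1, 7.04 and 6.59 in Control 2, 6.6 and 6.32 in Etop 1, and 4.6 and 4.38 in Etop 2. Just inside, the window at 40315351 on chromosome 19 (region 40314801 to 40315550) had 23 and 81 counts in Control and 90 and 34 in Etop, the most of any emptied window. Its induced counts were 4 and 5 in Dox and 3 and 5 in DoxEtop. The windows inside by a count of 5 with the next highest sums started at 210001201 and 226735551 on chromosome 1, the latter with 13 and 92 counts in Control, 64 and 22 in Etop, 0 in both Dox libraries, and 0 and 5 in DoxEtop. Just outside, the window at 44617301 on chromosome 19 had 24 and 95 counts in Control and 64 and 47 in Etop, with 2 and 6 in Dox and 4 and 4 in DoxEtop. The window at 17447751 on that chromosome had 13 and 84 counts in Control, 71 and 39 in Etop, and 2 and 6 in Dox. On chromosome 2, the window at 30369351 had 73 and 44 counts in Control, 71 and 19 in Etop, and 6 and 4 in Dox, and is one in which Control 1 was above Control 2.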

How the data were processed

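FAIRE-seq was done in 8 libraries, 4 groups of 2. The authors deposited raw counts per window, 1 column per library. The submitters' processing notes list the hg19 build and, without versions, Trim Galore, Bowtie2 and Bowtie. What each aligner did, the counting, the choice of windows and the handling of duplicates and input are not stated in the labels or the file; inputs were not used here.

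Levels are CPM of column totals with TMM factors. Etop vs Control was tested over all windows in the 4 libraries without induction (2 residual degrees of freedom) with edgeR 4.0.16 in R 4.3.3 (glmQLFit and glmQLFTest, two-sided, Benjamini-Hochberg at 0.05, no filter), and checked on simulated counts. DESeq2 1.42.0 and limma-voom (limma 3.58.1) were alternatives. No exact permutation test was made, because 0.333 is the lowest p that 2 libraries against 2 can reach. Replicates differed by more than sampling noise (chi-square per degree of freedom 1.86 to 3.11).

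The members and lists were chosen with earlier results of these data known. Named windows are the leading windows of the 10 regions with most emptied windows, the 5 regions' windows with fewest induced counts, the 5 most and 5 least even leading windows, the 5 with the smallest p in Etop vs Control, the 3 windows with most counts just inside and just outside the limit, and the 10 segments with most regions. Other regions, and the classes of width, position and induced count, were chosen after their values were seen.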

Additional observations from a re-analysis of the deposited data

How the results depend on the processing

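The number of emptied windows depends on the limit and on each induced library. It was 68 windows in 46 regions with a limit of 3, 4575 windows in 2707 regions with a limit of 10, and 144 windows with counts scaled either to the mean column total or by TMM-adjusted totals. Leaving out single induced libraries gave 501 (without DoxEtop replicate 1) to 1021 windows (without DoxEtop replicate 2), with 742 without Dox replicate 1 and 576 without Dox replicate 2, in 315 to 588 regions. These numbers can only grow, since fewer libraries must meet the limit. Merging at gaps of 0 or 1000 bp gave 228 and 227 regions.

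In Etop vs Control, 10 windows were called with limma-voom and 10 with the replicate number as a block, 0 of them emptied in both fits. The labels number the replicates, and these numbers were not taken to pair the samples in the main fit. Replicate differences of Control and Etop correlated at -0.0736 across windows. Leaving out 1 library gave 0 to 1052 calls (20 without Control replicate 2, 1052 without Etop replicate 2), and 0 to 5 emptied windows. The lone library is then assumed to vary like the other group. The 4 emptied windows called without Control replicate 2 start at 36606551, 36606601 and 36606651 on chromosome 5 and at 78405551 on chromosome 15, where Control 1 has 0 to 2 counts. The 5 without Etop replicate 2 start at 1620451, 1620501, 1620551 and 35294951 on chromosome 17 and at 142196251 on chromosome 5. The median log2 fold change of the emptied windows ranged from -0.273 (without Control replicate 1) and -0.0215 (without Etop replicate 1) to 1.24 (without Control replicate 2). It was 0.422 with the block, and 0.264 to 0.531 with DESeq2, limma-voom, column totals, all 8 libraries or low counts left out.

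At up to 5 counts per library, the level of a single window with induction is known only coarsely, and differences among the induced libraries, which chose the windows, were not tested.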

Other observations

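The pattern at the emptied windows also appears in the 4193 windows (1.64% of the table) whose highest count in an induced library was 6 to 10. Their median levels were 2.89 CPM in Control 1, 5.54 in Control 2, 5.46 in Etop 1 and 4.17 in Etop 2, and Control 1 was the lowest of these 4 libraries in 66% of them. Among the 75956 windows with a highest induced count of 11 to 20, Control 1 was lowest in 32.7%, and among the 151157 windows with 21 to 40 in 17.7%. In the 24453 windows with over 40, Control 1 was lowest in 9.85%, with a median of 6.62 CPM against 5.54 CPM in Control 2. The median ratio of Control 2 to Control 1 went from 2.69 in the emptied windows, here with nothing added to the levels and Control 1 set to at least 1 count, through 1.87, 1.19 and 0.933 to 0.838. Where the induced libraries were lowest, the library labelled Control 1 thus lay closer to them than the library labelled Control 2 did. The labels were not checked. These classes were formed on the induced counts after the values were seen, so the series of values is a description.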
